A study of Mus musculus with 121 samples.

Results

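The genes described here encode antibodies and 2 proteins of the cells that secrete them. They were chosen by symbol, as every immunoglobulin heavy, kappa or lambda variable segment, every constant region gene, Jchain and Mzb1, with at least 10 counts summed over all libraries of a tissue. Of 25759 genes in each table, 232 rows carried such a symbol. In gonadal fat 212 of them reached 10 counts, comprising 99 Ighv, 96 Igkv and 3 Iglv segments, 12 constant region genes, and Jchain with Mzb1. In liver 90 reached it, comprising 31 Ighv, 43 Igkv and 3 Iglv segments, 11 constant region genes, and Jchain with Mzb1, and all 90 were also among the 212. In fat the lowest gene inside the limit was Ighv15-2 with 10 counts and the highest outside it was Ighv8-11 with 9. In liver Ighv1-42 stood inside with 10 and Ighv1-19 outside with 9. Below the limit stood 20 rows in fat, 7 of them at 0, and 142 in liver, 43 of them at 0.

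RNA was sequenced from liver and gonadal fat of C57BL/6 mice with 3 genotypes, wild type (WT), heterozygous (HET) and knockout (KO), of a gene that the labels write as PEP. It was taken to be Pepd, whose product prolidase cleaves dipeptides with proline at their end. The labels do not describe the allele. From 8 weeks of age, for 18 weeks, mice ate standard chow with 10% of calories from lipid, or diets named HFD 45%, Control and Alios. In fat there were 4 WT, 8 HET and 5 KO libraries on chow and 8, 11 and 9 on HFD. Liver libraries on chow were from 5 WT, 8 HET and 5 KO mice. The HFD group held 8, 11 and 9 in that order, the Control group 5, 4 and 1, and the Alios group 6, 5 and 8. Each library is 1 mouse, and 44 mice had a library from both tissues.

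An antibody is built from heavy and light chains. A B cell joins 1 variable segment of each chain to a constant region, and its descendants carry the same join. Naive B cells use the mu and delta constant regions, Ighm and Ighd. Class switching replaces them by gamma, alpha or epsilon (Ighg, Igha, Ighe). Plasma cells transcribe the joined genes at very high levels, together with Jchain, which links IgM and IgA into polymers, and Mzb1, a chaperone of the endoplasmic reticulum. Fat of the abdominal cavity is known to hold B-1 cells, which make natural IgM, and the liver normally holds few B cells.

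The heavy chain genes lie on chromosome 12 of GRCm38, minus strand, with Ighm at chr12:113418558-113422730, Ighg1 at chr12:113325240-113330523 and Igha at chr12:113254830-113260236. Igkc, the kappa constant region, lies at chr6:70726435-70726966 on the plus strand, and Iglc1, a lambda constant region, at chr16:19061618-19062071 on the minus strand. Jchain lies at chr5:88519809-88527891 on the minus strand. Some variable segments are shown here by their letters in the reference genome. Each stretch is the 90 bases that end in the codon of the conserved cysteine near the end of the variable region. The capitals in the first sequence mark bases at which either of its relatives differs, and those in the relatives mark their own differences. Igkv3-2, the kappa segment of highest mean level in both tissues, is at chr6:70698955-70699044, plus strand. Its relative Igkv3-4 differs from it at 8 bases (91.1% identity), and Igkv3-5 at 14 (84.4%).
Igkv3-2: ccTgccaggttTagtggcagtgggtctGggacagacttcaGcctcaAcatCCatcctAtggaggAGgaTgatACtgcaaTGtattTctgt
Igkv3-4: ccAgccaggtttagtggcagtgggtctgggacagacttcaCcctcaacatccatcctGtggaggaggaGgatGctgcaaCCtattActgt
Igkv3-5: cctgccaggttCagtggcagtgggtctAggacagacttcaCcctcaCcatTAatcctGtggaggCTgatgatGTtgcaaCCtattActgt

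A read of 50 bases falls within such a stretch, so near relatives share some of their reads. Of all windows of 50 bases in a gene, the median share found in no other gene of the annotated transcripts was 77.7% for Ighv, 73.8% for Igkv and 99.8% for constant region genes. It was 24.3% for Mzb1. Levels of single variable segments and of Mzb1 are therefore uncertain, because the counting could have dropped or split shared reads. Unmutated reference letters are shown, and a rearranged gene of a mouse may carry mutations. Ighv11-2 and Igkv14-126 are shown because their shares moved together across libraries, as described below. Their capitals mark the cysteine codon. Igkv14-126 is at chr6:67896530-67896619, plus strand, and Ighv11-2 at chr12:114048249-114048338, minus strand. The 50-base windows found in no other gene were 100% for Igkv14-126 and 61.4% for Ighv11-2. In B-1 cells of the mouse peritoneum the pair is known to encode a receptor for phosphatidylcholine.
Igkv14-126: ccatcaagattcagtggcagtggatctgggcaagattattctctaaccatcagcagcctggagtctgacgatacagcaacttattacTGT
Ighv11-2: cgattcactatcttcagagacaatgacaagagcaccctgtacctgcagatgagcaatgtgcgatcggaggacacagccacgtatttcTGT

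Total counts ran from 4236655 to 6699887 in fat and from 42692 to 8854246 in liver (median 3191160, next lowest 1027087). The lowest liver library, Alios KO 8, held 5 counts of these genes. Levels are given as CPM, counts scaled to library size by TMM, and a change as log2 fold change ± SE. The edgeR quasi-likelihood test was run on every gene that passed the filter, its p-values were adjusted by Benjamini-Hochberg over all of them, and genes under 0.05 after adjustment are said to be called. Pepd stood at 6.70 to 33.6 CPM in chow KO fat against 58.5 to 101 in WT, and at 3.09 CPM or less in KO livers against 31.3 to 64.0 in WT. Fat Pepd of 1 HFD mouse labelled HET (fat library 3, liver library 8) was at 21.7 CPM, within the KO range. Adipocyte genes summed to 11290 to 90350 CPM in fat and hepatocyte genes to 77090 to 152700 CPM in liver. Epididymis genes exceeded 10000 CPM in fat libraries chow KO 1, HET 2 and WT 2 (the next highest was 2413), and hepatocyte genes reached 52890 CPM in fat library HFD WT 6.

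On chow, fat of KO mice held more immunoglobulin RNA than fat of WT mice, in 4 of the 5 KO libraries above every WT library. Summed over the chosen genes, KO libraries 1 to 5 held 15130, 5063, 3651, 44530 and 15860 CPM (16850 ± 16460, SD, n = 5). WT libraries 2 to 5 held 2540, 4248, 4494 and 2373 CPM (3414 ± 1112, SD, n = 4). KO 3 lay among the WT libraries and KO 4 stood far above the others. In KO 4 these genes took 5.02% of all counts, and 0.23% to 0.451% in the WT libraries. HET libraries ran from 1569 to 4898 CPM with a median of 3130 and overlapped WT. In bulk tissue, more cells of a type and more RNA per cell cannot be told apart.

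**Figure D1:**
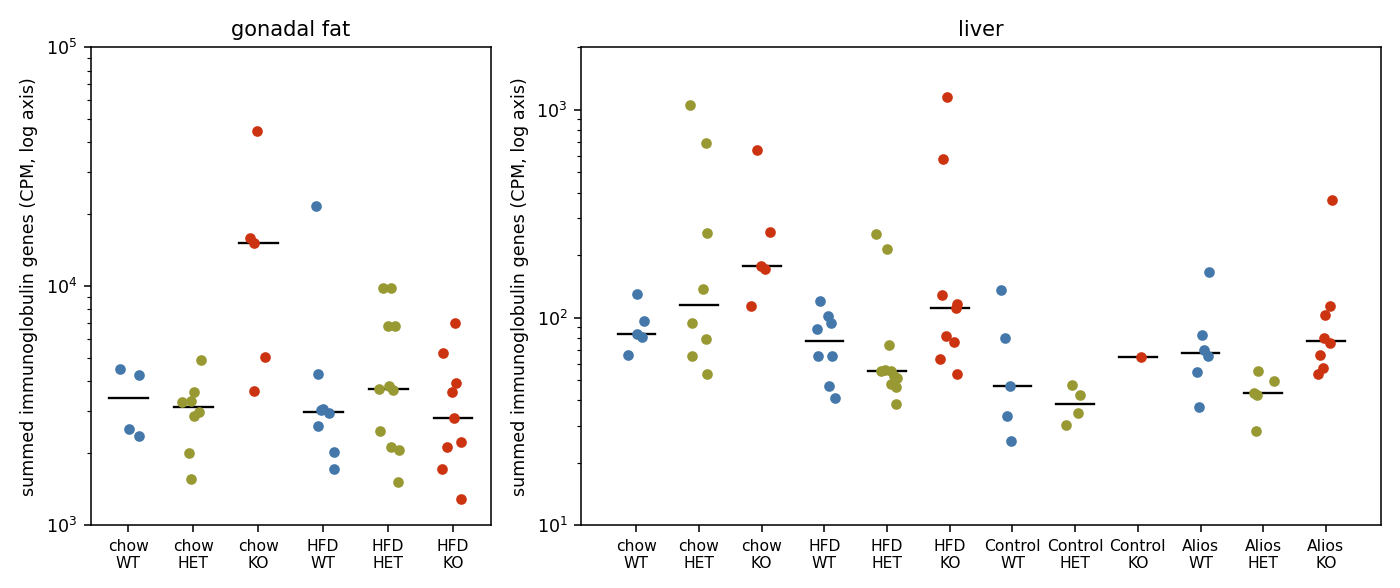
Summed level of the immunoglobulin genes, Jchain and Mzb1 per mouse (CPM, log axis), with gonadal fat left and liver right. Each point is 1 library, colours are genotypes and the black lines are group medians. Chow KO fat reached 44530 CPM, and the HFD WT fat library that stands apart from its group held 21630 CPM.

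Of the 212 genes, 205 had a higher group mean in KO than in WT fat on chow, and in 21 every KO library lay above every WT library, as in 1.14% of all 17576 genes with at least 10 counts. After the filter on low counts 167 were tested, and 37 rose and 0 fell in KO, where the test called 15% of all 14536 genes (8.85% as higher). The filter keeps a gene that is high in 1 group, so this count describes the genes tested. The median log2 fold change of the 167 was 2.86, against -0.03 over all genes. By class, 10 of 12 constant region genes rose, with 14 of 76 Ighv, 9 of 74 Igkv and 3 of 3 Iglv segments, and Mzb1.

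Among heavy chain constant regions, the delta and alpha genes gave the smallest adjusted p-values. Ighd stood at 267, 105, 10.3, 796 and 167 CPM in KO 1 to 5, and at 3.96, 16.1, 22.3 and 10.3 CPM in WT 2 to 5. KO 3 fell within the WT range and the other 4 lay above it (log2 4.35 ± 0.81, edgeR adjusted p = 0.000552). Igha, the IgA heavy chain, stood at 1139, 21.8, 48.3, 744 and 569 CPM in KO and at 28.4, 11.2, 24.4 and 5.90 CPM in WT. Again the KO values exceeded the WT range in 4 of 5, KO 2 being the exception (log2 4.85 ± 0.93, edgeR adjusted p = 0.000712). Ighm, the IgM heavy chain, stood at 5782, 2802, 2356, 15180 and 6862 CPM in KO and at 1687, 2794, 2553 and 2177 CPM in WT. Its rise was smaller (log2 1.52 ± 0.54, edgeR adjusted p = 0.0479), and the KO and WT ranges overlapped through KO 3.

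The gamma genes rose with far more spread. Ighg1 stood at 353, 8.26, 0.163, 6214 and 207 CPM in KO and at 5.22, 16.7, 2.30 and 0.328 CPM in WT. In 3 KO libraries it exceeded the WT range, and KO 3 lay below that range (log2 7.76 ± 2.21, edgeR adjusted p = 0.0155). Ighg3 stood at 86.9, 76.3, 17.1, 148 and 19.2 CPM in KO and at 4.50, 2.51, 8.48 and 0.983 CPM in WT, with no overlap (log2 4.08 ± 1.43, edgeR adjusted p = 0.0469). Ighg2b (log2 3.40 ± 1.16) and Ighg2c (log2 3.90 ± 1.36) rose with edgeR adjusted p-values of 0.0408 and 0.0466. Ighe, the IgE heavy chain, had 0 counts in every WT and HET library on chow. In KO it stood at 1.89, 0, 0, 43.1 and 2.11 CPM, at least 18.8-fold higher than WT, taking 3 counts in each WT library as the limit (edgeR adjusted p = 0.00408). Of its 232 counts in KO 206 were in KO 4, and without that library the lower bound was 1.996-fold.

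Light chains and the 2 plasma cell genes moved the same way. Igkc stood at 3681, 1249, 612, 15230 and 5050 CPM in KO and at 422, 794, 1079 and 77.4 CPM in WT. It lay above every WT library in 4 of 5 and just missed the threshold (log2 3.12 ± 1.11, edgeR adjusted p = 0.0502). The lambda constant regions Iglc1 and Iglc2 separated the groups. Iglc1 stood at 134, 58.0, 50.4, 263 and 102 CPM in KO and at 9.89, 19.8, 21.0 and 6.23 CPM in WT (log2 3.09 ± 0.92, edgeR adjusted p = 0.0198). Iglc2 stood at 87.8, 68.0, 39.5, 237 and 65.7 CPM in KO and at 19.1, 9.89, 37.1 and 8.36 CPM in WT (log2 2.42 ± 0.70, edgeR adjusted p = 0.017). For each of Ighg3, Iglc1 and Iglc2 a two-sided exact permutation test over the 9 libraries gave p = 0.0079, the smallest it can give. It is quoted only for genes whose groups did not overlap, so it restates that separation and adds no support. Mzb1 stood at 33.0, 13.7, 4.57, 135 and 40.7 CPM in KO and at 4.14, 7.97, 7.95 and 1.31 CPM in WT (log2 3.08 ± 1.00, edgeR adjusted p = 0.0331). Jchain stood at 533, 124, 89.1, 816 and 433 CPM in KO against 63.3, 67.9, 141 and 10.8 in WT, with 3 of 5 above every WT library (log2 2.5 ± 0.90, edgeR adjusted p = 0.0537). Iglc3 did not pass either (log2 2.62 ± 0.96, edgeR adjusted p = 0.0561).

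**Figure D2:**
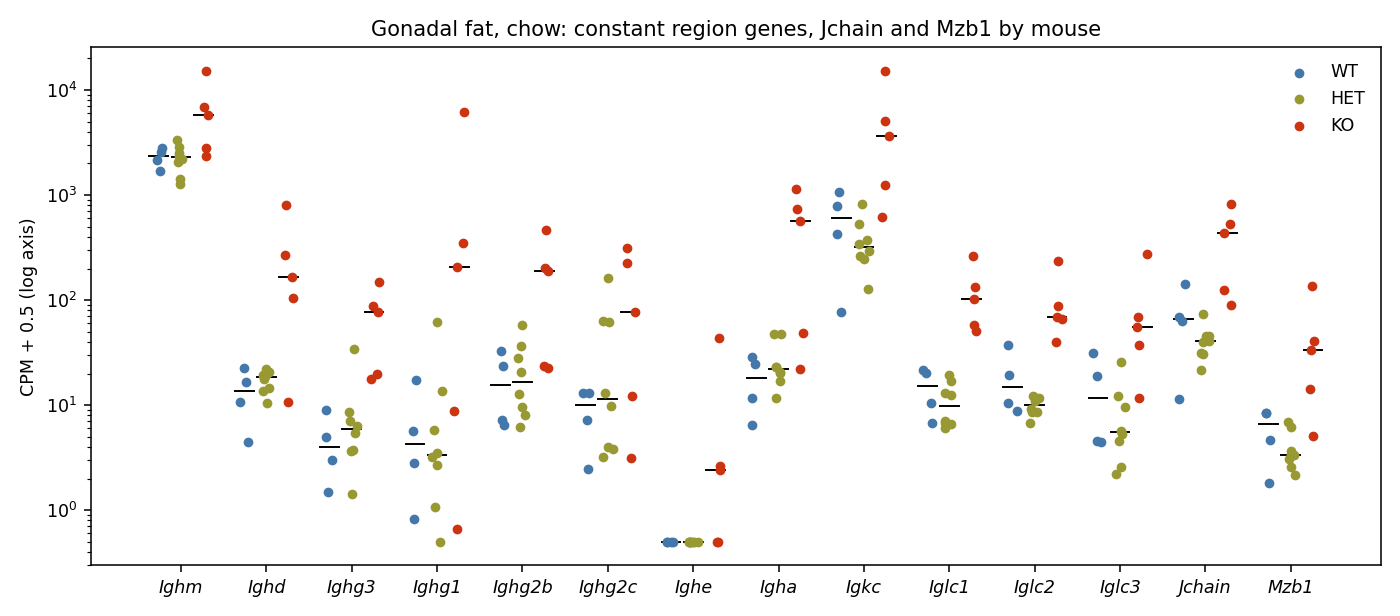
Constant region genes, Jchain and Mzb1 in gonadal fat on chow, as CPM + 0.5 on a log axis. Each point is 1 library and colours are genotypes. In Ighg3, Iglc1 and Iglc2 the 5 KO points lie above the 4 WT points, and in the others the KO and WT ranges overlap or share 0.

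The count of 37 depended on single mice. It was 4 without KO 4 or without WT 5, 13 without WT 3, 16 without WT 2, 18 without KO 5 and 70 without KO 3. Igha and Ighd passed in each of the 9 fits that left out 1 of these libraries. Without KO 4 they were the constant region genes still called (edgeR adjusted p = 0.00303 and 0.00501), and without WT 5 Ighe was called beside them (Ighd 0.0044, Igha 0.00563 and Ighe 0.017 by edgeR, adjusted). Igkc, Jchain and Iglc3, which were not called with all libraries, passed without KO 3 (edgeR adjusted p = 0.0205, 0.0222 and 0.021) and also without KO 2 or WT 4, Igkc without KO 1 too. Ighm, Ighg2b, Ighg2c, Ighg3 and Mzb1 each lost their call in 5 or more of the 9 fits, Iglc1 and Iglc2 in 3 and Ighg1 in 2. When the chow KO and WT groups were fitted without the other groups, 0 were called (edgeR adjusted p = 0.319 for Ighd and for Igha). DESeq2 called 66. With the run of mouse numbers (300s or 500s) as a covariate 40 were called, and without the 3 libraries rich in epididymis genes 12.

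Against HET mice on chow the difference was called more often. Of 167 genes 102 were higher in KO and 0 lower, where the test called 32.4% of all genes (18% as higher). Of all 212, 206 had a higher mean in KO, and in 11 every KO library lay above every HET library (0.37% of all genes). These means also include KO 4, and 12 of the 212 had 0 counts in HET. Ighd ran from 9.96 to 21.4 CPM in HET with a median of 18.1, so that KO 3 lay among them (log2 4.01 ± 0.60, edgeR adjusted p = 5.68e-06). Jchain ran from 21.0 to 73.4 CPM with a median of 40.0 in HET, below each KO library (log2 3.30 ± 0.72, edgeR adjusted p = 0.000678). Iglc1 and Iglc2 were also separated from HET, whose highest values were 18.7 and 11.8 CPM. Igkc ran from 128 to 819 CPM in HET and rose in KO (log2 3.79 ± 0.87, edgeR adjusted p = 0.00112). Of the 12 constant region genes Ighg2c alone was not called (log2 1.67 ± 0.96, edgeR adjusted p = 0.186). Jchain and Mzb1 both were called, with 44 of 76 Ighv, 42 of 74 Igkv and 3 of 3 Iglv segments. The count was 60 without KO 4, where Ighm (edgeR adjusted p = 0.109), Ighg1, Ighg2b and Ighg3 were no longer called, and 43 when these 2 groups were fitted alone. Without HET 4 Ighg2c was called (edgeR adjusted p = 0.0492). HET against WT on chow gave 0 calls by edgeR among the 167 (0% of all genes), with 18 at an unadjusted p under 0.05 (4.29% of all genes), 5 of them higher, and 0 by DESeq2. The KO comparisons with WT and with HET share the KO libraries and are not independent.

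The shares of the heavy chain classes in the RNA differed between libraries as well as their level. Per kilobase of exon, Ighm made up 96.9% to 98.3% of the heavy chain constant level in the 4 chow WT libraries. In KO 1 to 5 its share was 75.7%, 92.8%, 96.9%, 69.2% and 87.6%, so that KO 3 alone lay at the WT values. Switched classes (gamma, alpha and epsilon) made up 20.9%, 3.70%, 2.72%, 27.3% and 10.3% in KO and 1.26% to 2.25% in WT. The main switched class differed between KO mice. In KO 4 Ighg1 alone took 20.6%, and in KO 1 Igha took 10.5%. Outside the KO group, chow HET 4 reached 12.5% switched and an HFD HET library 13.6%. Ighm was never below 1115 CPM in fat, whereas Igkc fell to 38.7 CPM in HFD HET 11. The Ighm to Igkc ratio per kilobase thus ran from 0.281 in chow KO 4 to 10.3 in HFD HET 11. Ighm therefore did not follow the light chain in every library, and the Ighm share depends on its level. Whether the shares reflect class switching was not tested. The ratio of all light to all heavy constant regions per kilobase was 1.85, 1.67, 1.05, 2.59 and 2.39 in chow KO 1 to 5 and 0.970, 1.03, 1.58 and 0.155 in WT 2 to 5.

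**Figure D3:**
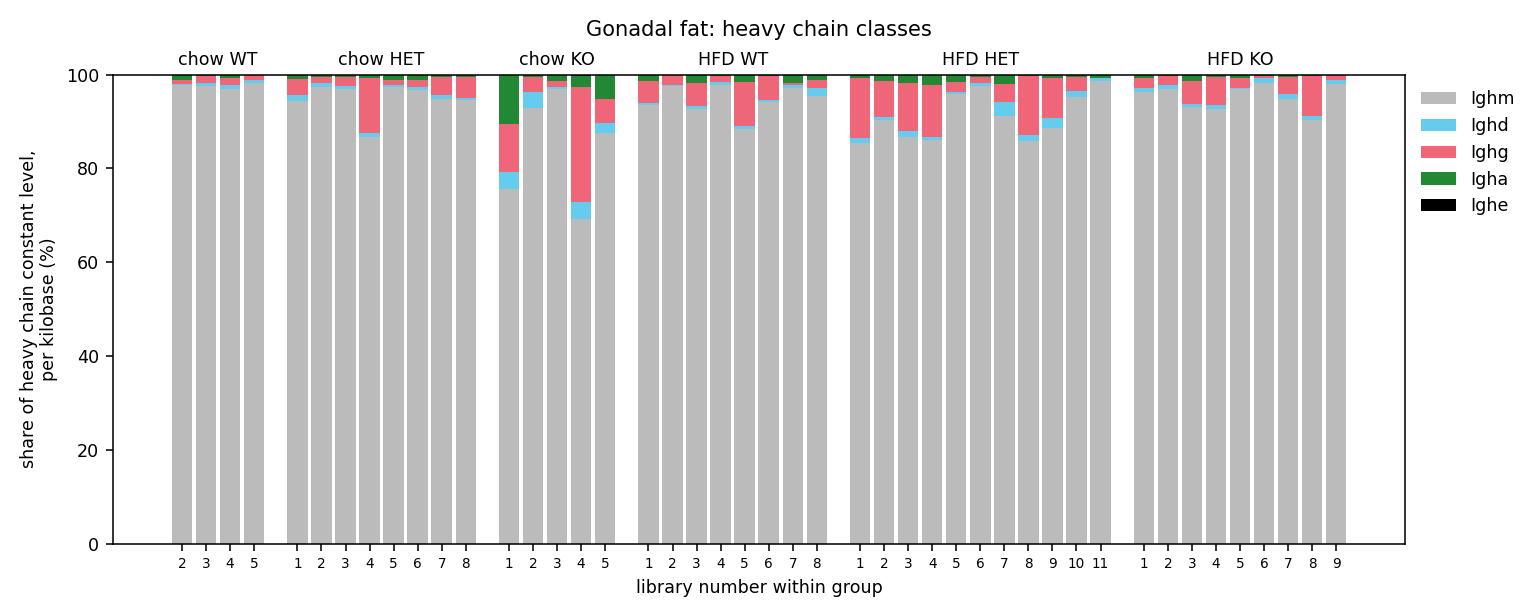
Share of each heavy chain class in gonadal fat, per kilobase of exon (%), for every library by group. Bars are stacked to 100%. Ighm takes most of each bar, and its lowest share, 69.2%, is in chow KO library 4, where Ighg genes take most of the rest.

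The genes of B cells and of lymphoid tissue moved with the immunoglobulin genes. Of 20 B cell genes 18 rose in chow KO against WT fat, where the test called 15% of all genes (8.85% as higher). Among the 18 was Cd79a, a signalling chain of the B cell receptor (log2 4.50 ± 0.89, edgeR adjusted p = 0.000875). Bank1 (log2 3.31, edgeR adjusted p = 0.000552) and Cd22 (log2 3.92, edgeR adjusted p = 0.000778), which tune receptor signals, had the smallest adjusted p-values. The list summed to 1141, 672, 237, 3658 and 1218 CPM in KO 1 to 5 and to 144 to 335 CPM in WT. Ebf1 (log2 -0.26) and Bhlhe41 (log2 0.14) were not called. How this list count and those of the lists below depend on single libraries was not tested.

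Of 15 tested genes of a plasma cell list that leaves out the antibody genes, 8 rose and 0 fell (8.85% of all genes called as higher). Cd38 rose (log2 1.88 ± 0.28, edgeR adjusted p = 0.000108), as did Tnfrsf13b, a receptor for B cell survival factors (log2 2.28 ± 0.46, edgeR adjusted p = 0.000915). Of the transcription factors, Irf4 rose by 1.33 and Xbp1 by 0.39 on the log2 scale (edgeR adjusted p = 0.0122 and 0.0272). Prdm1, the regulator that turns B cells into plasma cells, was not called (log2 0.58 ± 0.32, edgeR adjusted p = 0.21), nor was Sdc1, the plasma cell surface marker (log2 0.14 ± 0.33, edgeR adjusted p = 0.799). Several listed genes are also used by B cells or other secretory cells.

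All 5 tested lymphoid tissue genes rose, including Ltb (log2 3.82, edgeR adjusted p = 0.00083), Cr2 (log2 4.30, edgeR adjusted p = 0.00103) and Glycam1, a ligand of lymph node vessels (log2 5.53, edgeR adjusted p = 0.0302). That list of 8 summed to 180, 167, 8.30, 612 and 614 CPM in KO and to 7.70 to 33.8 CPM in WT. Ccl19 and Ccl21a were listed at 0 in these groups. How the counting treated shared reads is not known, so that 0 is not read as absence. The survival factor Tnfsf13b, known as BAFF, rose (log2 1.74 ± 0.33, edgeR adjusted p = 0.000615), with 5 of 7 survival factors and chemokines. Fcgr2b, the inhibitory IgG receptor, rose (log2 1.81 ± 0.33, edgeR adjusted p = 0.000433), with 4 of 9 genes of immunoglobulin transport and Fc receptors. Of 7 germinal centre and class switch genes 0 were called. Of 9 T cell genes 2 rose, and of 10 macrophage genes 5. For all these lists, the share of all genes called as higher was 8.85%. Adipocyte genes summed to 19430, 72130, 70780, 11290 and 20990 CPM in KO 1 to 5, against 41300 to 66040 CPM in WT, so that the 3 KO libraries with the most immunoglobulin held the least adipocyte RNA. The part of these other cell types in the immunoglobulin result was not tested.

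On HFD the KO group overlapped the other genotypes. Summed levels in fat ran from 1286 to 7027 CPM in KO (median 2814, n = 9), from 1724 to 21630 in WT (median 2990, n = 8) and from 1513 to 9872 in HET (median 3722, n = 11). The value of 21630 belonged to WT 2 alone, whose skeletal muscle genes summed to 1139 CPM, and the next WT library held 4282 CPM. The 9872 CPM belonged to the HFD mouse labelled HET whose Pepd was low. KO against WT on HFD gave 0 calls by edgeR among 167 (0.0344% of all genes), with 23 at an unadjusted p under 0.05 (10.5% of all genes), 6 of them higher, and 0 by DESeq2. KO against HET gave 0 (0.0138% of all genes), with 22 at an unadjusted p under 0.05 (7.77% of all genes), 3 of them higher, and 0 by DESeq2. The log2 fold change of KO over HET was above 0 in 26 of the 167, with a median of -0.765. HET against WT gave 0 (0.00688% of all genes), with 12 at an unadjusted p under 0.05 (4.88% of all genes), 10 of them higher, and 0 by DESeq2.

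Within KO mice, fat on HFD held less immunoglobulin RNA than on chow. Of 212 genes 200 had a lower mean on HFD, and in 3 every HFD library lay below every chow library (2.08% of all genes, a larger share than among these). The chow means include KO 4, and 6 of the 212 had 0 counts in KO fat on HFD. Of the 167 tested 72 fell and 0 rose, where the test called 35.5% of all genes (20.6% as lower). Their median log2 change was -2.17, against -0.08 over all genes. Igha ran from 1.54 to 52.2 CPM on HFD with a median of 12.2, overlapping the lowest chow values (log2 -4.83 ± 0.66, edgeR adjusted p = 1.45e-06). Ighd ran from 4.38 to 39.8 CPM with a median of 16.6 (log2 -3.99 ± 0.57, edgeR adjusted p = 2.7e-06). Iglc2 ran from 5.74 to 35.5 CPM, below every chow KO library (log2 -2.81 ± 0.53, edgeR adjusted p = 9.57e-05). Ighm, from 1115 to 3616 CPM on HFD, fell less (log2 -1.68 ± 0.42, edgeR adjusted p = 0.00173), and Ighe was at most 0.188 CPM. Of 12 constant region genes 10 fell, Ighg2c and Ighg3 being the others. B cell genes fell in 18 of 20. The count was 33 without chow KO 4, where Igkc (edgeR adjusted p = 0.052), Iglc1 and Ighg2b were no longer called, and 45 without chow KO 1.

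In HET mice the direction was the opposite, and smaller. Of the 167 genes 41 were higher on HFD and 0 lower, where the test called 34.4% of all genes (15.6% as higher), with a median log2 change of 1.60 against -0.04 over all genes. Iglc2 ran from 6.22 to 11.8 CPM on chow (median 9.53) and from 1.61 to 64.9 on HFD (median 17.9), with overlap (log2 1.53 ± 0.48, edgeR adjusted p = 0.0131). Iglc1 (log2 1.92), Ighg3 (log2 2.34) and Ighe, which was at 0 on chow and at up to 1.70 CPM on HFD, also rose (edgeR adjusted p = 0.0151, 0.0432 and 0.0405). Ighm was not called (log2 0.23 ± 0.36, edgeR adjusted p = 0.655). The count was 23 without HFD HET 8 and 26 without chow HET 8. Iglc2 was called without each library in turn, Iglc1 lost its call without HFD HET 2 (edgeR adjusted p = 0.0629), and Ighg3 and Ighe lost theirs without most single libraries of the chow group. In WT mice 0 of 167 were called between HFD and chow by edgeR (4.57% of all genes), with 19 at an unadjusted p under 0.05 (28.1% of all genes), 13 of them higher, and 3 by DESeq2.

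The difference of KO effects between the diets was tested in itself. In fat the KO effect was lower on HFD than on chow for 22 of the 167 and higher for 1, Igkv12-89, where the test called 6.33% of all genes (4.66% as lower and 1.67% as higher). The 22 included 8 constant region genes, among them Igha (log2 difference -5.75, edgeR adjusted p = 0.00141), Ighd (-4.39, edgeR adjusted p = 0.00365) and Ighm (-2.14, edgeR adjusted p = 0.0389). B cell genes were lower in 17 of 20. Igha and Ighd passed without each of the 26 libraries in turn, and Ighm did not. The count of 23 was 3 without chow KO 4 or HFD WT 2, 5 without chow WT 5, 8 without chow KO 5, 10 without chow WT 2 or WT 3, 11 without chow KO 1, 13 without HFD KO 2 or KO 9, 15 without HFD KO 1 or KO 6, and 51 without chow KO 3.

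Variable segments were used unevenly. In fat the highest mean levels among Ighv were those of Ighv1-53 (12.5 CPM), Ighv11-2 (9.28) and Ighv1-26 (8.50). Among Igkv they were Igkv3-2 (66.1 CPM), Igkv14-126 (35.0) and Igkv1-110 (19.3), and Iglv1 was at 19.4 CPM. By the median share of a library the order was turned, with Igkv14-126 at 11.7% of Igkv counts and Igkv3-2 at 7.30%, and Ighv11-2 at 7.09% of Ighv counts and Ighv1-53 at 4.34%. Igkv14-126 was the highest Igkv segment in 18 of 45 libraries and Igkv3-2 in 13. Ighv11-2 was the highest Ighv segment in 13 of 44 and Ighv1-53 in 4. On chow Ighv1-26 (log2 5.03 ± 1.53, edgeR adjusted p = 0.0228) and Iglv1 (log2 2.74 ± 0.92, edgeR adjusted p = 0.037) were higher in KO than in WT. The segments Ighv11-2 (log2 0.85, edgeR adjusted p = 0.632) and Igkv14-126 (log2 1.00, edgeR adjusted p = 0.556) were not called. The number of variable genes with a count was 142 to 195 in chow KO fat and 78 to 154 in WT, at 2373 to 18813 and 309 to 3148 variable counts, so depth and detection moved together.

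The shares of Ighv11-2 and Igkv14-126 rose and fell together from mouse to mouse. They were singled out after their values were seen, so no p-value is given. Ighv11-2 took 2483 of 53139 Ighv counts over the fat libraries, 4.67% (95% exact interval 4.50 to 4.86), and Igkv14-126 took 9339 of 104545 Igkv counts, 8.93% (8.76 to 9.11). Such intervals cover counting error only. In the 44 libraries with at least 50 Ighv and 50 Igkv counts, the Ighv11-2 share ran from 0% to 18.8%. In the 45 with at least 50 Igkv counts the Igkv14-126 share ran from 0.225% to 49.2%, the highest being HFD HET 11, which is not among the 44.

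Across the 44 libraries the 2 shares had a Pearson r of 0.973 and a Spearman rho of 0.977, although their denominators are separate. With group means removed the values were 0.973 and 0.963, and without the 2 libraries farthest from the median Ighv11-2 share r was 0.965. Within groups r was 0.901 in chow HET (n = 8), 0.989 in HFD HET (n = 10), 0.972 in HFD KO (n = 9) and 0.985 in HFD WT (n = 8, where rho was 0.714). Within runs of mouse numbers it was 0.985 in the 300s (n = 25) and 0.949 in the 500s (n = 18). Among 99 Ighv segments Ighv11-2 had the highest r with Igkv14-126, followed by its relative Ighv11-1 (0.94), of whose 50-base windows 47.7% are found in no other gene. Among 96 Igkv segments Igkv14-126 had the highest r with Ighv11-2, and the next was Igkv12-98 (0.4). Of all 9504 pairs of Ighv and Igkv segments the pair was first by rho and second by r, after Ighv1-49 and Igkv7-33 (r 0.986), of which Ighv1-49 had 42 counts in all. The median r over all pairs was -0.034.

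**Figure D4:**
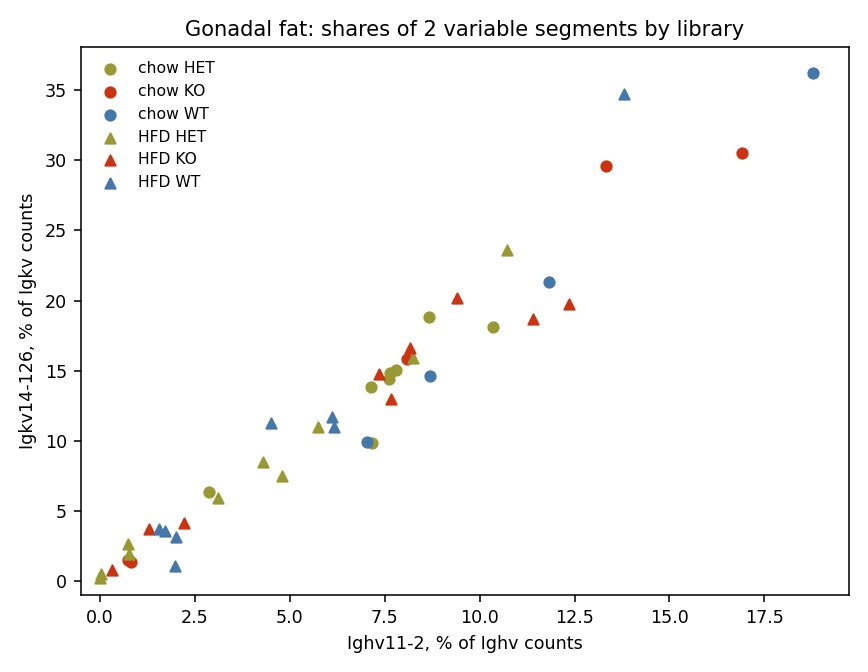
Share of Ighv11-2 among Ighv counts (x axis, %) and of Igkv14-126 among Igkv counts (y axis, %) in 44 gonadal fat libraries. Colours are genotypes, circles chow and triangles HFD. The points rise along 1 band (Pearson r 0.973), and each group spreads along it.

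The groups overlapped in both shares. The Ighv11-2 share ran from 0.748% to 16.9% in chow KO fat (median 8.08) and from 7.04% to 18.8% in WT (median 10.3). The Igkv14-126 share ran from 1.36% to 30.5% in KO (median 15.8) and from 9.93% to 36.3% in WT (median 18.0). The lowest chow shares belonged to KO 1 (0.816% and 1.36%) and KO 4 (0.748% and 1.54%), the 2 KO libraries with the most switched heavy chain.

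In liver these genes were far lower. Summed levels on chow ran from 65.8 to 129 CPM in WT (median 83.2), from 53.6 to 1057 in HET (median 115) and from 113 to 639 in KO (median 178). On HFD they ran from 40.9 to 120 CPM in WT, from 38.2 to 253 in HET and from 53.6 to 1157 in KO. On Alios they ran from 37.0 to 166 CPM in WT, 28.4 to 55.1 in HET and 53.6 to 369 in KO. Groups overlapped on each diet, and single mice stood well above the rest of their group.

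Of the 90 liver genes 11 passed the filter on chow and HFD. The filter keeps a gene for its high libraries, so the counts of called genes describe the genes tested. In chow KO livers Ighg1 was the 1 called higher and 0 were lower, where the test called 3.4% of 11064 genes (2.47% as higher). Ighg1 stood at 13.9, 16.3, 27.0, 0.578 and 17.0 CPM in KO 1 to 5 and at 0.905, 0, 0, 0 and 0.515 CPM in WT 1 to 5. Libraries are numbered within each tissue, so liver KO 4 is the mouse of fat KO 3, and liver KO 5 that of fat KO 4. Liver KO 4 lay among the WT libraries and the other 4 above them (log2 5.34 ± 1.29, 40.6-fold, edgeR adjusted p = 0.013). With WT at or near 0, the fold is no firm measure of size. Igkc stood at 87.5, 46.8, 201, 27.5 and 68.0 CPM in KO and at 22.4, 16, 18.7, 19.5 and 9.26 CPM in WT. The groups did not overlap, and the two-sided exact permutation p = 0.0079, the smallest possible, restates that separation. Igkc was not called over all genes (log2 2.32 ± 0.93, edgeR adjusted p = 0.145). Ighm was not called (log2 1.10 ± 0.72, edgeR adjusted p = 0.398), with 267 CPM in KO 3 and 46.4 to 82.7 in the other KO livers. The Ighg1 call was lost without KO 2 (edgeR adjusted p = 0.0705), without KO 3 (edgeR adjusted p = 0.0502), without the libraries rich in skeletal muscle genes (WT 3 at 295 CPM and KO 5 at 189 CPM among them), and when the groups were fitted alone. In the same comparison 0 of 8 tested B cell genes and 0 of 9 plasma cell genes were called by edgeR, while 9 of 10 macrophage genes were higher.

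The other liver comparisons of genotypes that were tested gave 0 calls by edgeR. On Alios, KO against HET and HET against WT were not tested, and on Control no genotypes were compared. For KO against HET on chow (13.5% of all genes called) 1 of 11 genes had an unadjusted p under 0.05, against 30.8% of all genes. For HET against WT on chow (0% called) 7 of 11 had one, all higher in HET, against 4.46% of all genes. On HFD 6 had one for KO against WT (1.72% called), all higher in KO, against 15.8% of all genes. For KO against HET on HFD (2.39% called) 8 had one, all higher in KO, against 14.9%, and for HET against WT (0.00904% called) 0 had one, against 8.35%. On Alios 2 of 13 had one for KO against WT (0.224% called), against 14.5% of all genes. These were Ighv2-2 and Igkv10-96, each lower in KO. DESeq2 called 3 for KO against WT and 2 for KO against HET on HFD, and 0 in the others. Alios against Control had 1 of 13 at an unadjusted p under 0.05 in WT (0% called, and 8.42% of all genes at that p) and 0 in HET (0.19% called, 13.1% at that p), and 0 by DESeq2 in both. The difference of KO effects between HFD and chow gave 0 (0.145% called, DESeq2 0), with 0 at an unadjusted p under 0.05 against 18.1% of all genes. The 11 genes share libraries and cells and are not independent.

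HET livers held less immunoglobulin RNA on HFD than on chow, where 9 of 11 genes fell and 0 rose (14.2% of all genes called, 7.26% as lower). A gene can pass the filter through its high libraries alone, so this count too describes the genes tested. Igkc fell by 2.17, Ighm by 1.83 and Ighg1 by 3.13 on the log2 scale (edgeR adjusted p = 0.0187, 0.0134 and 0.0206). The chow group held HET 6 at 1057 and HET 2 at 691 CPM of summed level, and the HFD median was 55.2 CPM. The count was 0 without chow HET 6 (edgeR adjusted p = 0.097 for Igkc) and 5 without chow HET 2, HFD HET 9 or HFD HET 11. In WT livers 0 of 11 were called between the diets by edgeR (1.87% of all genes), with 0 at an unadjusted p under 0.05 (15.3% of all genes). In KO livers 0 were called (10.7% of all genes), with 2 at an unadjusted p under 0.05 (28% of all genes). DESeq2 called 0 in both.

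In the 44 mice with both tissues, all 22 genes tested were lower in liver than in fat, where the test called 91.9% of 12699 genes (49.5% as lower in liver). The filter keeps a gene for its level in fat alone, and 11 of the 22 also passed it in liver on its own, so the direction is in part set by the filter. The size of the difference varied among the genes. Ighm was 27.6-fold, Igkc 12.4-fold, Jchain 8.25-fold and Igha 3.85-fold lower. Ighd differed least (2.23-fold, log2 -1.16). Igkv14-126 had 16 counts in liver, in 6 of the 44 mice, against 9193 in fat, and Ighv11-2 had 3, in 3 mice, against 2425. Their fitted folds depend on the prior count and are not given as sizes.

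**Figure D5:**
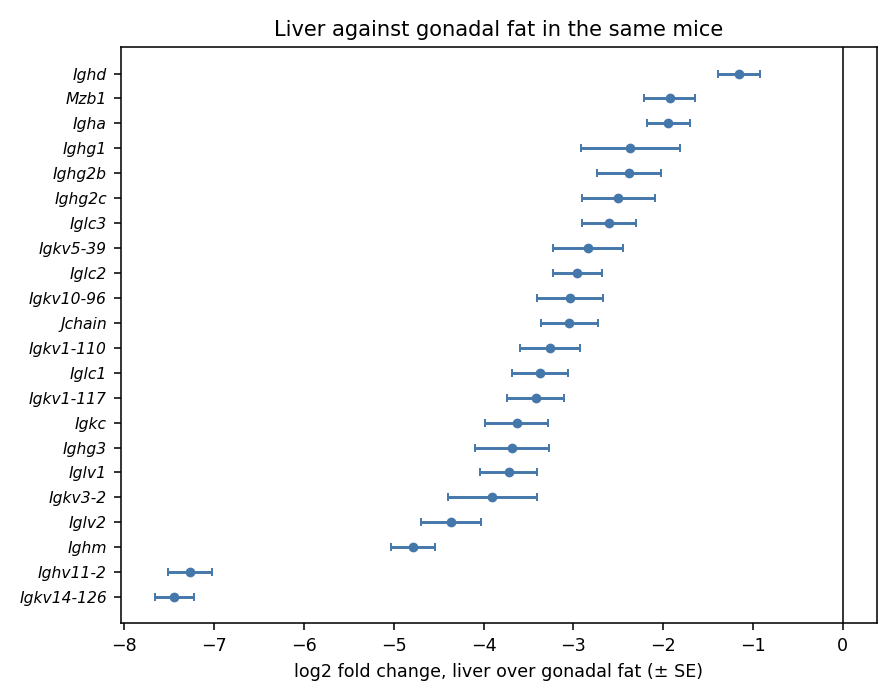
Log2 fold change of liver over gonadal fat with its SE for the 22 genes tested in 44 mice. All points lie left of 0, and Ighd at -1.16 lies nearest to it. The points farthest left, among them Igkv14-126 with 16 counts and Ighv11-2 with 3 in liver, depend on the prior count of the fit.

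Igkv3-2 led the pooled Igkv counts in both tissues, and the pair of Ighv11-2 and Igkv14-126 was scarce in liver. In liver Ighv11-2 had 4 of 1002 Ighv counts, 0.399% (95% exact interval 0.109 to 1.02), and stood below the limit of 10 counts. Igkv14-126 had 25 of 2138 Igkv counts, 1.17% (0.758 to 1.72). Igkv3-2 (12.6%), Igkv5-39 (10.1%) and Igkv1-110 (9.96%) led the liver Igkv counts, where in fat they had 16.4%, 3.32% and 5.07%. Of the 213 liver counts of Igkv1-110 115 were in chow HET 2, and without that library its share was 5.12%. Only 8 liver libraries held 50 or more Igkv counts. In the mice with both tissues, Ighv11-2 had 3 of 786 Ighv counts in liver and 2425 of 46031 in fat.

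No relation between the levels in liver and fat of the same mouse passed the test after adjustment. With group means removed, Igkc gave a Pearson r of 0.047 (permutation p = 0.76) and a Spearman rho of 0.133 (permutation p = 0.39) over 44 mice. Ighm gave 0.055 and 0.077 (permutation p = 0.72 and 0.62), and Jchain -0.043 and 0.029 (permutation p = 0.78 and 0.85). Igha gave r 0.265 (permutation p = 0.081) and rho 0.3 (permutation p = 0.047), and without the 2 mice farthest from the median liver level r was 0.154. Adjusted over these 4 genes, the p-values of Igha were 0.32 and 0.19. Shares of single segments were compared within mice as a description. In the chow HET mouse of liver library 2 and fat library 3, Igkv1-110 took 41.7% of 276 variable counts in liver (95% exact interval 35.8 to 47.7) and 23.5% in its fat (22.0 to 25.1), where it ranked first. In the fat of the other mice its share had a median of 2.35% and a highest value of 7.17%. In the HFD KO mouse of liver library 2 and fat library 5, Igkv3-2 took 18.5% of 178 liver counts and 15% in its fat, and other mice reached 21.9%. Of 10 mice with at least 50 variable counts in both tissues, the leading liver segment ranked first in the mouse's own fat in 3. In 8 of the 10 the leading liver segment had a larger share in the mouse's own fat than the median of the other mice, and in 1, the chow HET mouse above, larger than in each of them. The 2 exceptions were the HFD WT mouse of liver library 5 and fat library 2, with Igkv5-39 at 1.02% of its fat counts against a median of 1.82%, and the HFD HET mouse of liver library 1 and fat library 5, with Igkv3-2 at 1.06% against 4.42%.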

How the data were processed

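Per the labels' protocols, polyadenylated RNA of liver and gonadal fat (integrity number above 7) was made into stranded libraries and read as single ends of 50 bases. The submitters' processing notes list STAR 2.5.1b, featureCounts 1.5 and the build GRCm38.p5. For counting, no settings or strand option were given in the sources used here. Deposited by the authors were raw counts per Ensembl gene, which are whole numbers with a different total in each library. A column was matched to 120 of 121 labelled samples. Chow WT fat sample 1 was not analysed here, and 1 unlabelled column was left out. Symbols came from the GRCm38 annotation (25723 of 25759 genes), and 36 genes had none.

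The genes, lists and tests were chosen with earlier results of these data known. Counts were analysed with edgeR 4.0.16 in R 4.3.3, in fits over all groups of gonadal fat (14536 genes), of liver on chow and HFD (11064) and of liver on Control and Alios (11595), so that groups share an estimate of the spread. The edgeR expression filter (minimum count 10, total 15), TMM and Benjamini-Hochberg adjustment within each comparison were used, and tests were two-sided. Liver and fat of 44 mice were compared with the mouse as a block (12699 genes). Permutation tests used log2(CPM + 0.5), exact between groups and with 100000 resamples for correlations. The KO group on Control held 1 library and entered no test. The labels name no litters, so p-values measure the spread between mice, housed 3 to 4 a cage.

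Named genes were the constant region genes, Jchain and Mzb1, the 3 Ighv, 3 Igkv and 1 Iglv of highest mean level in a tissue, up to 10 called genes each way by fold, up to 2 called genes of each other list by adjusted p, and Pepd. Further list genes, Ighv11-2 with Igkv14-126 and the single mice were named after their values were seen. Sequences are from GENCODE transcripts on GRCm38. In simulated counts 100 genes were changed 2-fold and 100 changed 4-fold. Of these the edgeR test recovered 59 and 83 for KO against WT in chow fat (14536 genes), with 5 false calls. In chow liver (11064 genes) it recovered 69 and 89, with 15 false calls. The changed genes were drawn from all genes of the fit, so the rates are not those of the immunoglobulin genes. Same-numbered libraries of different groups did not deviate together (median correlation -0.014 in fat).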

Additional observations from a re-analysis of the deposited data

Results flagged for a closer look

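Sets of values, 90 in all, were each a gene or the summed level in 1 group of 4 to 10 libraries. In 23 of them a library's gap to the nearest other passed the 95% limit of Dixon's test. For normal, independent values chance gives about 1 in 20. The sets share libraries and CPM were not tested for normality, so no excess over chance is read from the 23. In fat on HFD, WT 2 stood apart in the summed level (21630 CPM), Igkc (5299), Ighm (11890), Jchain (383) and Ighg1 (105), the others reaching 4282, 721, 2654, 82.8 and 20.2 CPM. In fat on chow, Ighg1 stood apart in KO 4 (6214 CPM, the others up to 353) and in HET 3 (60.8 CPM, up to 13.1), and Jchain in HET 3 (73.4 CPM, up to 45.4). Jchain stood apart in fat of HFD KO 7 (228 CPM, the others up to 121).

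In liver on Alios, KO 2 stood apart in the summed level (369 CPM), Igkc (89.95), Jchain (16.9) and Ighg1 (2.72), and WT 2 in the summed level (166 CPM) and Igkc (35.2). On chow, KO 3 stood apart in the summed level (639 CPM) and Ighm (267), and HET 6 in Ighg1 (14.4 CPM). On HFD, KO 7 stood apart in the summed level (1157 CPM), Igkc (346) and Ighg1 (21.7). On Control the values were 9.82 CPM of Igkc in HET 3 and 7.13 CPM of Jchain in WT 3.

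The KO against WT effect in fat differed between HFD and chow, by the edgeR test of the difference itself, for 16 named genes (log2, HFD minus chow). Among constant region genes the differences were -2.14 for Ighm, -4.39 for Ighd, -5.75 for Igha, -10.13 for Ighe, -8.66 for Ighg1, -4.29 for Ighg2b, -3.42 for Iglc1 and -2.63 for Iglc2. Among heavy variable segments they were -6.46 for Ighv1-26 and -7.44 for Ighv1-19. Among kappa segments they were -10.69 for Igkv8-18, -6.94 for Igkv8-27, -6.55 for Igkv3-3, -6.53 for Igkv17-121, -6.06 for Igkv8-21 and 6.03 for Igkv12-89. Several of these genes had 0 counts in whole groups, where a fitted value depends on the prior count and is no measure of size.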

How the results depend on the processing

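Counts of called genes moved with the processing most in fat on chow. For KO against WT (37) the count was 66 with DESeq2, 3 at an adjusted p under 0.01, 0 when these groups were fitted alone (edgeR) and 12 without the libraries rich in epididymis genes, and 4 to 70 when a library was left out. For KO against HET (102) it was 43 in these groups alone and 60 to 112 with a library left out. For the difference of KO effects (23) it was 40 with DESeq2, 2 at 0.01, 13 without a filter, 3 in these groups alone, 8 without the epididymis-rich libraries and 3 to 51 with a library left out. For HFD against chow in KO (72) it was 29 at 0.01, 44 in these groups alone and 33 to 84 with a library left out. In HET (41) it was 7, 20 and 23 to 52 in the same order, and in WT (0) 3 with DESeq2, 1 with a mean of at least 1 CPM, 1 without a filter and 0 to 2. On HFD it was 1 with either filter setting for KO against WT and HET against WT (0 each), and 0 to 2 for KO against WT with a library left out.

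In liver, HFD against chow in HET (9) gave 5 with DESeq2, 0 at 0.01, 24 without a filter, 5 in these groups alone and 0 to 10 with a library left out, and in KO (0) 0 to 2. KO against WT on chow (1) gave 0 at 0.01, alone or without the muscle-rich libraries, and 0 to 1. KO against HET gave 0 to 1 on chow and on HFD 2 with DESeq2, 1 with either filter setting, 1 alone, 2 with the run of mouse numbers, 1 without the muscle-rich libraries and 0 to 4. KO against WT on HFD gave 3 with DESeq2 and 1 with either filter setting. Liver against fat (22) gave 117 with DESeq2 and 201 without a filter, 1 of them higher in each, since more genes were tested. The other causes were not tested.

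Replicate numbers did not pair the libraries (same-numbered median correlations -0.014 in liver on chow and HFD, 0.017 on Alios and Control and -0.014 in fat). With the replicate block the counts were 43 for HFD against chow in KO fat, 7 for the difference in fat, 0 for HFD against chow in HET livers, 1 in KO livers and 1 for KO against HET livers on chow. The liver to fat correlation changed sign for Igkc (-0.075 in the 500s, 0.047 in all) and Jchain (0.002 without 2 mice and 0.041 in the 300s, -0.043 in all). The libraries left out for epididymis, muscle and liver RNA were chosen after seeing the data. Depth limits liver most, where a library held a median of 13 variable counts.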
